A study of Mus musculus with 32 samples.

Results

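The phagocyte NADPH oxidase is described here by 6 genes, Cybb, Cyba, Ncf1, Ncf4, Rac2 and Hvcn1, which were taken by name from the 42524 genes of a table of RNA-seq read counts from mouse spinal cord. The table covers 32 mice in 8 groups of 4: WT or G93A mice, untreated or given OKN-007, at label times of 90 or 155 days. G93A mice carry a transgene of the human SOD1 gene with the G93A mutation, a model of amyotrophic lateral sclerosis in which motor neurons die, on the C57BL/6J background. WT mice were C57BL/6J littermates without it. OKN-007 is a nitrone given in the drinking water. The dose given to the sequenced mice is not stated in the sources used here. The sources also differ on the earlier time, which the labels give as 90 days and the study's text as an age of 95 days. The labels' name is kept here. The study used mostly female mice. The transgene itself, being human, was not analysed here.

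This enzyme moves electrons from NADPH inside the cell across a membrane to oxygen and so makes superoxide, with which phagocytes kill microbes and, in the nervous system, can signal to or injure neighbouring cells. In the spinal cord its usual site is the microglia, the resident macrophages, and it is switched on when cytosolic subunits are phosphorylated and join the membrane-bound core. Each electron that leaves must be balanced by a proton, which a proton channel lets out.

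Cybb encodes gp91phox (NOX2), the catalytic subunit, and Cyba encodes p22phox, the partner that stabilises it in the membrane. Ncf1 encodes p47phox, the organiser that docks on p22phox, and Ncf4 encodes p40phox, which binds a membrane lipid and holds the enzyme at phagosomes. Rac2 encodes the GTPase of blood and myeloid cells that helps to activate the core, and Hvcn1 encodes the voltage-gated proton channel. In the GENCODE M21 annotation of GRCm38 the genes lie on chromosome X from 9435252 to 9487771 (Cybb, ENSMUSG00000015340, minus strand), chromosome 8 from 122424776 to 122432930 (Cyba, ENSMUSG00000006519, minus), chromosome 5 from 134220053 to 134229625 (Ncf1, ENSMUSG00000015950, minus), chromosome 15 from 78244801 to 78262580 (Ncf4, ENSMUSG00000071715, plus), chromosome 15 from 78559167 to 78572783 (Rac2, ENSMUSG00000033220, minus) and chromosome 5 from 122206804 to 122242297 (Hvcn1, ENSMUSG00000064267, plus). The reads were counted over whole genes, so these counts do not separate exons or isoforms.

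The promoters of 3 of the 6 genes, Cybb, Cyba and Ncf1, were in the RefSeq table used here (GRCm38.p6), and the 250 bases before each start are shown because these genes rose together in the G93A cord. They were searched on both strands for GAGGAA, a form of the site that the myeloid factor PU.1 binds. They were also searched for TTCNNNGAA, the form of a site for STAT factors. The windows are chrX:9469325-9469574 for Cybb, chr8:122432941-122433190 for Cyba and chr5:134229626-134229875 for Ncf1, each on the minus strand and printed 5′ to 3′ toward the start. Capitals mark the match to TTCNNNGAA.
Cybb: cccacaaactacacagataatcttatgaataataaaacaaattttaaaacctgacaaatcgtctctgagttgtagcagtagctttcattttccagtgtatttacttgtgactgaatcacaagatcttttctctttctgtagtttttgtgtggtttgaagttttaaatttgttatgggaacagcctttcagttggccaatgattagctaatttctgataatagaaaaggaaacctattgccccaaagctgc
Cyba: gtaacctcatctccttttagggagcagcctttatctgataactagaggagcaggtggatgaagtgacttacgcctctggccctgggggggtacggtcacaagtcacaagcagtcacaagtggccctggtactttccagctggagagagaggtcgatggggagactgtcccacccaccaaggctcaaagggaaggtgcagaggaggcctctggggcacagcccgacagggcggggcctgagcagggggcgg
Ncf1: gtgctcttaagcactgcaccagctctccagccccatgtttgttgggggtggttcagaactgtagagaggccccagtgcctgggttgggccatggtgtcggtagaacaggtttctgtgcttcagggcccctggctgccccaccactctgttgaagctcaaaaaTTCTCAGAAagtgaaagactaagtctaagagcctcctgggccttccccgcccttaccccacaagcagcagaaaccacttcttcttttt
The letters GAGGAA were in 0 of the 3 windows, and 23.25% of the 32851 promoter windows of this length in the table held them. Other forms of a PU.1 site were not searched for, so this count does not show that the 3 windows lack such a site. The match to TTCNNNGAA stood in the Ncf1 window alone, with its first base 88 bases before the start, and 7.02% of all windows held this form. A match is a description of the letters only. The RefSeq start of Cybb lies inside the longer gene that GENCODE draws.

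The total counts per mouse ran from 19701722 to 30138257, with a median of 26658755. Levels are given as CPM, the gene's read count scaled to library size, with library sizes set by TMM over the 32 mice. A level of 3 counts, the floor used here, was 0.0995 to 0.152 CPM, and this floor covers counting error only. The intervals given below come from the edgeR fits of the groups and so include the spread between mice. Markers of the labelled tissue were present: 10 genes of spinal cord neurons together stood at 1306 to 3364 CPM in the mice at 155 days. A pair of G93A libraries at 155 days, untreated replicate 12 and OKN-007 replicate 15, held 190 and 134 CPM of 7 liver genes, against at most 19.6 CPM in the other mice of that age and at most 76.8 CPM at 90 days. The summed level of 8 caudal Hox genes, which mark the position along the cord, was 59.97 to 202 CPM in untreated G93A mice and 222 to 268 CPM in untreated WT mice at 155 days. With a score of these Hox genes as a covariate, the calls of the 6 genes did not change in any comparison. At 155 days this score was 3.645 to 4.587 in untreated WT and 0.471 to 3.545 in untreated G93A mice. With OKN-007 it was 4.391 to 4.669 in WT and 1.539 to 3.686 in G93A mice. The genotypes did not overlap in it within a treatment, so the covariate cannot separate position along the cord from genotype at that age. No library batch is named in the labels. In bulk tissue, more cells of a type and more RNA per cell cannot be told apart.

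At 155 days the 6 genes rose together in the G93A cord, with Cybb far ahead of the others. In untreated mice, 6 of 6 passed the threshold (edgeR's quasi-likelihood test, Benjamini-Hochberg adjusted over all genes tested, with a limit of 0.05), all higher in G93A mice. This count stands against a background in which 39.5% of the 18675 genes tested were called. Their median log2 fold change was 3.06, and the median of all genes tested was 0.00015. For each of the 6 genes, the 4 G93A mice lay above the 4 WT mice.

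The catalytic subunit gene showed the widest gap. Cybb stood at 31.3, 44.8, 39.8 and 20.2 CPM in untreated G93A mice and at 0.634, 0.955, 0.459 and 0.656 CPM in untreated WT mice. The WT values rest on 12 to 22 counts per mouse, whereas the G93A mice had 611 to 1083 counts. The fold change was 51.0, or 5.67 on the log2 scale (standard error 0.28, adjusted p = 2.96e-11). Cyba stood at 40.6, 51.9, 66.9 and 29.1 CPM in G93A mice and at 3.91, 6.86, 4.17 and 5.15 CPM in WT mice. Thus the lowest G93A mouse held several times the level of the highest WT mouse for both core genes. The rise of Cyba was 9.496-fold, 3.25 on the log2 scale with a standard error of 0.22 (adjusted p = 1.38e-09).

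The cytosolic subunit genes rose less than Cybb. Ncf1 stood at 43.9, 56.7, 67.4 and 34.7 CPM in untreated G93A mice and at 10.4, 10.5, 7.99 and 11.4 CPM in untreated WT mice. This was the smallest rise of the 6, 5.08-fold or 2.34 on the log2 scale with a standard error of 0.18 (adjusted p = 5.51e-09), from the highest WT level in CPM. Ncf4 stood at 3.91, 6.04, 6.73 and 3.01 CPM in G93A mice and at 0.671, 0.347, 1.11 and 0.558 CPM in WT mice. The WT mice had 8 to 29 counts of Ncf4, and the rise was 7.30-fold, 2.87 on the log2 scale (standard error 0.30, adjusted p = 4.71e-07). For both genes the lowest G93A mouse lay above the highest WT mouse.

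The GTPase gene and the proton channel gene also separated the genotypes. Rac2 stood at 8.05, 10.1, 11.04 and 5.62 CPM in untreated G93A mice and at 1.12, 1.56, 1.38 and 1.15 CPM in untreated WT mice. The rise was 6.76-fold, 2.76 on the log2 scale with a standard error of 0.24 (adjusted p = 3.01e-08). Hvcn1 stood at 17.3, 27.9, 26.6 and 13.2 CPM in G93A mice and at 1.79, 2.04, 1.61 and 1.71 CPM in WT mice. After Cybb this was the largest rise of the 6, 11.99-fold or 3.58 on the log2 scale with a standard error of 0.23 (adjusted p = 6.63e-10). Replicate 12, the library with the liver genes, was the lowest of the 4 untreated G93A mice for 6 of 6 genes, and replicate 11 or 10 was the highest. The count stayed at 6 of 6 without the libraries with the most liver RNA, a setting added once the data had been seen.

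**Figure D1:**
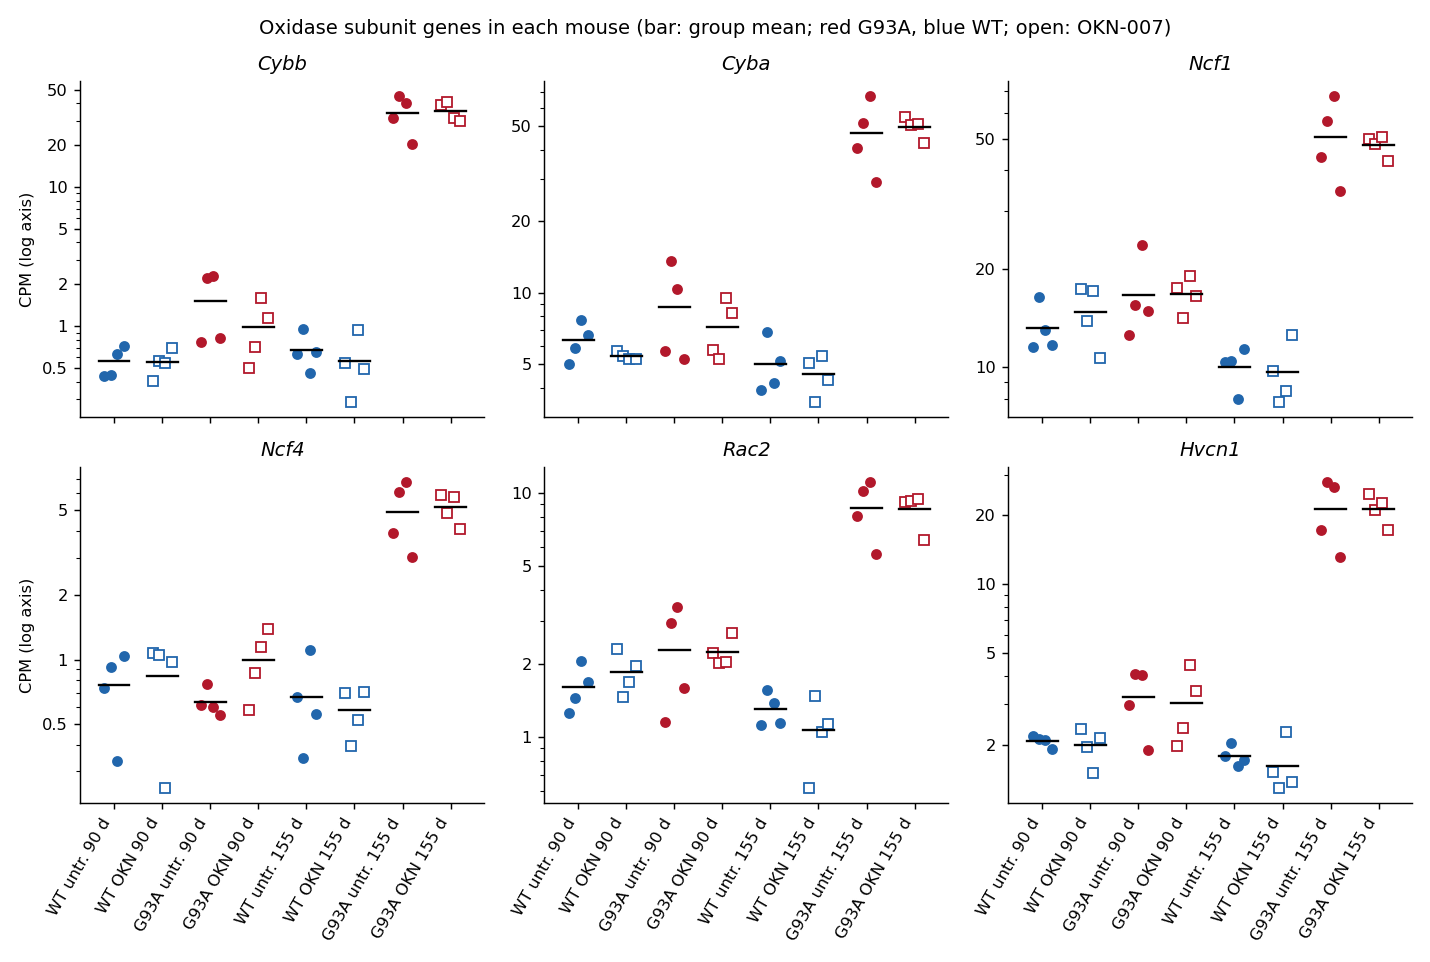
CPM (log axis) of the 6 oxidase genes in each of the 32 mice, by group of 4, with the group mean as a bar; red marks G93A, blue WT, and open squares OKN-007. In each panel the 8 G93A mice at 155 days lie above the other 24 mice, and Cybb shows the widest gap, from at most 2.28 CPM in the other mice to at least 20.2 CPM.

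The same comparison in mice given OKN-007 gave close values in other animals. Again 6 of 6 genes were called higher in G93A mice at 155 days, against 41.5% of all 18675 genes tested, with a median log2 fold change of 3.33 against 0.018 for all genes. Cybb stood at 38.6, 40.8, 31.5 and 30.0 CPM in G93A mice given OKN-007 and at 0.543, 0.288, 0.934 and 0.495 CPM in WT mice given OKN-007. On the log2 scale the rise was 5.99 (standard error 0.28, adjusted p = 1.58e-11). Cyba stood at 55.0, 50.8, 51.4 and 42.5 CPM against 5.08, 3.49, 5.42 and 4.31 CPM in WT mice, a rise of 3.49 on the log2 scale with a standard error of 0.22 (adjusted p = 4.70e-10). For both core genes the treated groups did not overlap.

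Hvcn1 was at 24.8, 21.1, 22.6 and 17.3 CPM in treated G93A mice and at 1.51, 1.296, 2.28 and 1.38 CPM in treated WT mice (log2 fold change 3.77, standard error 0.23, adjusted p = 2.91e-10). Ncf4 was at 5.90, 4.87, 5.74 and 4.07 CPM against 0.699, 0.396, 0.523 and 0.707 CPM (log2 fold change 3.18, standard error 0.31, adjusted p = 1.24e-07). Both were again without overlap. Rac2 was at 9.16, 9.23, 9.46 and 6.40 CPM against 0.621, 1.48, 1.05 and 1.13 CPM (log2 fold change 3.03, standard error 0.24, adjusted p = 9.02e-09). Ncf1 was at 49.9, 48.1, 50.7 and 42.7 CPM against 9.74, 7.85, 8.44 and 12.5 CPM (log2 fold change 2.35, standard error 0.18, adjusted p = 4.43e-09). Thus Ncf1 had the smallest and Cybb the largest rise in the treated mice as in the untreated mice. Replicate 16 was the lowest treated G93A mouse for 6 of 6 genes.

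**Figure D2:**
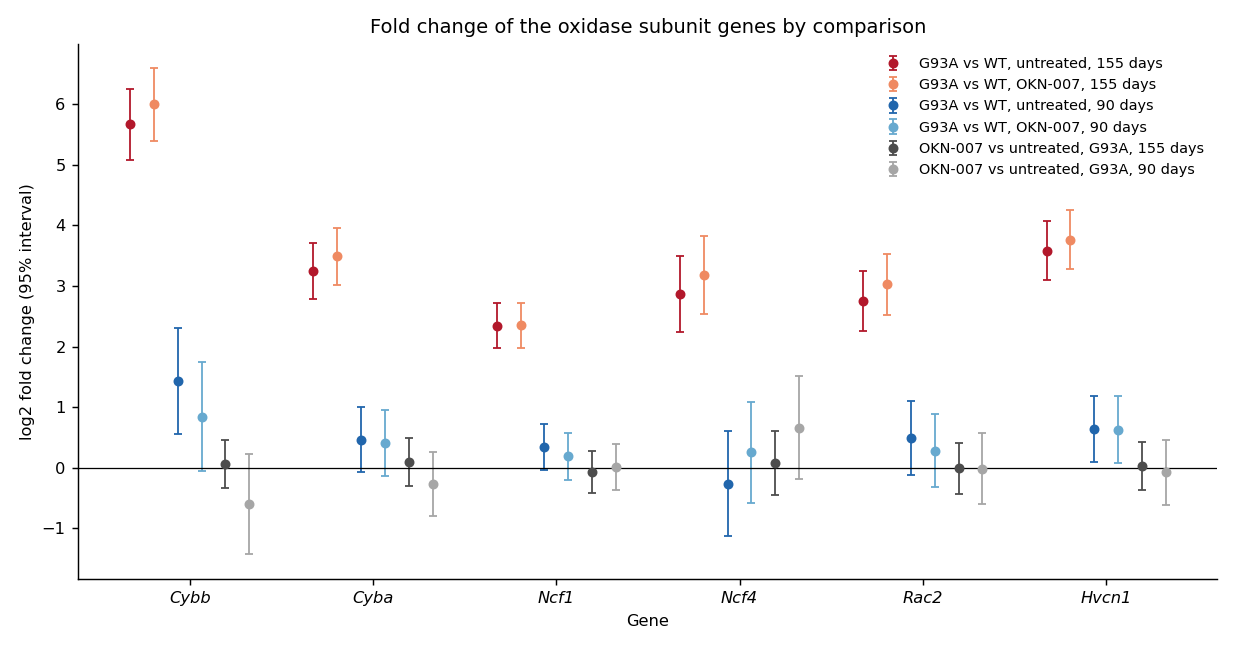
Log2 fold change of each oxidase gene with its 95% interval in 6 comparisons. The G93A against WT values at 155 days run from 2.34 (Ncf1, untreated) to 5.99 (Cybb, OKN-007), whereas the OKN-007 against untreated values of G93A mice at 155 days lie between -0.069 and 0.097.

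No effect of OKN-007 on these genes was detected within G93A mice. At 155 days, 0 of 6 genes passed the threshold by edgeR's quasi-likelihood test, 0 had an unadjusted p under 0.05, and DESeq2 called 0. The background was 0% of 18675 genes (755 had an unadjusted p under 0.05, and DESeq2 called 0). The log2 difference of treated from untreated G93A mice was 0.064 for Cybb (95% interval -0.34 to 0.46), 0.097 for Cyba (-0.301 to 0.49) and -0.069 for Ncf1 (-0.41 to 0.27). It was 0.083 for Ncf4 (95% interval -0.45 to 0.61), -0.0091 for Rac2 (-0.43 to 0.42) and 0.029 for Hvcn1 (-0.36 to 0.42). Each interval spans 0 and bounds a fall at 0.45 log2 units or less. The treated and untreated G93A mice overlapped for each gene, as the values above show, and the untreated mice were more spread: the SD of Cyba was 16.2 CPM without and 5.25 CPM with OKN-007 (n = 4 each). The difference in spread was not tested.

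In WT mice at 155 days, 0 of 6 genes differed with OKN-007 by edgeR (0 at an unadjusted p under 0.05, 0 by DESeq2; background 0%, with 549 genes at an unadjusted p under 0.05 and 2 called by DESeq2). The log2 differences lay between -0.28 (Rac2) and -0.072 (Ncf1). The interaction of genotype and treatment at 155 days likewise called 0 of 6 genes (0 at an unadjusted p under 0.05, 0 by DESeq2; background 0%, 437 genes at an unadjusted p under 0.05, 2 by DESeq2). Its value was 0.32 for Cybb (95% interval -0.65 to 1.29) and 0.0031 for Ncf1 (-0.50 to 0.51). With 4 mice per group these intervals are wide beside the differences between treatments.

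Per length, Cybb was the lowest of the 6 genes in WT mice and stood beside Hvcn1 in G93A mice. Levels of different genes were compared as RPKM, the CPM divided by the length in kilobases of the gene's merged exons in GENCODE M21. In untreated WT mice at 155 days the order was Cyba at 4.83 ± 1.29 RPKM, Ncf1 at 2.74 ± 0.39, Hvcn1 at 0.501 ± 0.052, Rac2 at 0.419 ± 0.067, Ncf4 at 0.332 ± 0.159 and Cybb at 0.116 ± 0.035 (SD, n = 4). The mice overlapped between Hvcn1 and Rac2 and between Rac2 and Ncf4, and not between the other neighbours in this order. The gene of the catalytic subunit was thus the lowest of the 6 in the WT cord, and the gene of its membrane partner the highest by exon length.

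In untreated G93A mice of that age the order was Cyba at 45.4 ± 15.5 RPKM, Ncf1 at 13.8 ± 3.92, Hvcn1 at 5.96 ± 2.01, Cybb at 5.86 ± 1.86, Rac2 at 2.81 ± 0.78 and Ncf4 at 2.44 ± 0.87 (SD, n = 4). Cybb stood above Rac2 and Ncf4 here. The mice overlapped between Hvcn1 and Cybb, at their ends between Cybb and Rac2, and between Rac2 and Ncf4, but Cyba, Ncf1 and Hvcn1 stood apart. The log2 ratio of Cybb to Cyba, each per length, was -5.11, -5.33, -5.67 and -5.46 in the 4 untreated WT mice and -2.86, -2.69, -3.23 and -3.01 in the 4 untreated G93A mice. These groups did not overlap. In mice given OKN-007 the ratio was -5.60 ± 0.44 in WT and -2.99 ± 0.16 in G93A mice (SD, n = 4). The log2 ratio of Ncf1 to Ncf4, the cytosolic pair, was 1.99 to 4.05 in untreated WT and 2.37 to 2.67 in untreated G93A mice, so these groups overlapped, whereas with OKN-007 it was 2.94 to 3.45 in WT and 2.22 to 2.53 in G93A mice, without overlap. These ratios were not tested. With coding length in place of exon length, 2 genes changed places in WT mice, Rac2 passing Hvcn1, and the means of Cyba and Ncf1 in WT mice came to 8.72 and 8.05 CPM per coding kilobase, so their distance there depends on the length used.

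**Figure D3:**
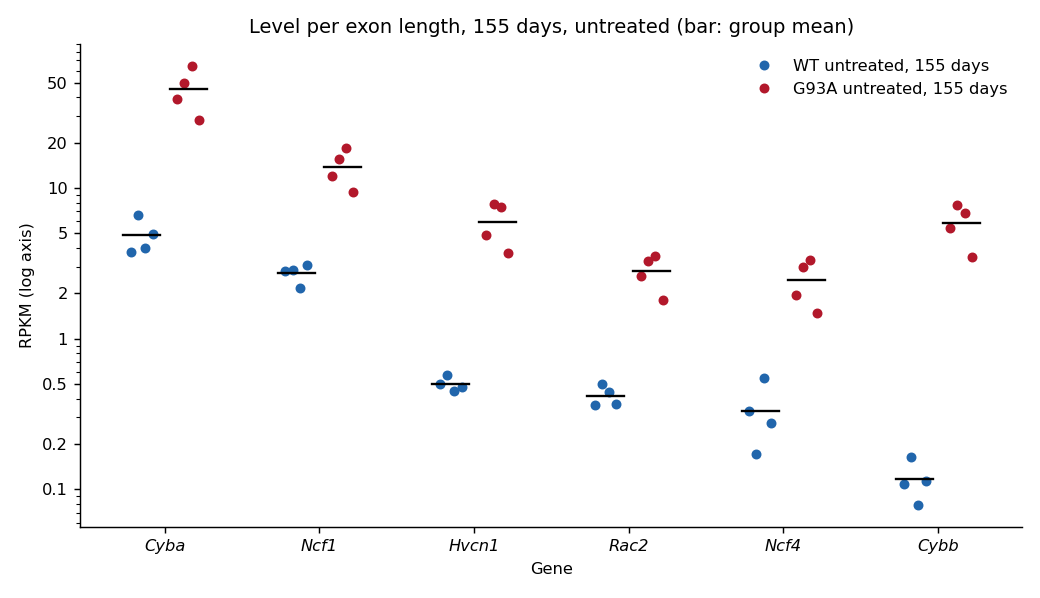
RPKM (log axis) of the 6 oxidase genes in the 4 untreated WT and 4 untreated G93A mice at 155 days, with group means as bars. Cybb is the lowest gene in WT mice at 0.116 RPKM and stands at 5.86 RPKM in G93A mice, beside Hvcn1 at 5.96.

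Microglial genes as a whole also rose in these mice, and the oxidase genes were set against them. Of 12 microglial markers, 12 passed the threshold as higher in untreated G93A mice at 155 days, with a median log2 fold change of 2.02, and their summed level was 1391 to 2243 CPM against 368 to 435 CPM in WT mice. The 12 genes of disease-associated microglia, the state seen around degenerating neurons, all passed too, with a median of 3.72 and a summed level of 12240 to 27340 against 3014 to 4146 CPM. A ratio to 7 of the 12 microglial markers, among them Aif1, Csf1r, Laptm5 and Cx3cr1, was taken in each mouse. It was log2(CPM + 0.1) of the gene minus the mean log2(CPM + 0.1) of the 7. An equal rise of an oxidase gene and the 7 genes leaves this ratio where it was. The markers P2ry12, Tmem119, Sall1 and Siglech were left out, and they rose less than the 7. In untreated mice at 155 days the mean of P2ry12 was 21.41 CPM in WT and 27.65 CPM in G93A mice. That of Siglech was 11.82 and 23.11 CPM, and that of Csf1r 47.87 and 175.7 CPM. A reference that also held these markers would give higher ratio differences, which were not computed.

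The oxidase genes differed in this ratio. For Cybb it was -5.07 ± 0.36 in untreated WT and -2.16 ± 0.22 in untreated G93A mice (SD, n = 4), a difference of 2.92 log2 units, and 3.11 in mice given OKN-007. For Hvcn1 the difference was 0.92 untreated and 0.97 with OKN-007, and for Cyba 0.66 and 0.74. The difference was smaller for Ncf4 (0.21 and 0.26), Rac2 (0.10 and 0.23) and Ncf1 (-0.23 and -0.37). An exact two-sided permutation test of 4 against 4 mice cannot go below p = 0.0286, which Cybb and Hvcn1 reached in both treatments and Cyba with OKN-007. Adjusted over the 12 tests made, this is 0.0686, so 0 of 12 passed. At that smallest p, passing depends on how many of the 12 tests reach it, so this count does not weigh a single gene.

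With both treatments in 1 test and genotype labels exchanged only within a treatment, an exact permutation test chosen after the data were examined, the difference was 3.01 for Cybb and 0.95 for Hvcn1 (exact p = 0.00041 for both, the smallest it can give). It was 0.70 for Cyba (exact p = 0.00082) and -0.30 for Ncf1 (exact p = 0.0196). Each reference tried left out P2ry12, Tmem119, Sall1 and Siglech, so no direction is given for Ncf1 against the full list of microglial markers. For Cybb and Hvcn1, 8 of 8 G93A mice lay above the 8 WT mice, for Cyba 7 of 8 did, and for Ncf1 3 of 8 lay below. Adjusted over the 6 genes the permutation p was 0.0012 for Cybb and Hvcn1, 0.0016 for Cyba and 0.029 for Ncf1, and the last of these was lost on leaving out any 1 of 8 of the 16 mice (adjusted permutation p up to 0.070). Ncf4 and Rac2, at 0.24 and 0.17, had an exact permutation p of 0.23 and 0.26. With a pseudocount of 1, which is above the mean WT levels of Cybb and Ncf4, the differences of Ncf4 and Rac2 became -0.66 and -0.41, so no direction is given for these 2 genes. Cybb, Hvcn1 and Cyba passed with a higher ratio in G93A mice under each setting of the combined test, leaving out single mice included, but with a pseudocount of 1 the difference was 1.90 for Cybb, 0.49 for Hvcn1 and 0.55 for Cyba.

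**Figure D4:**
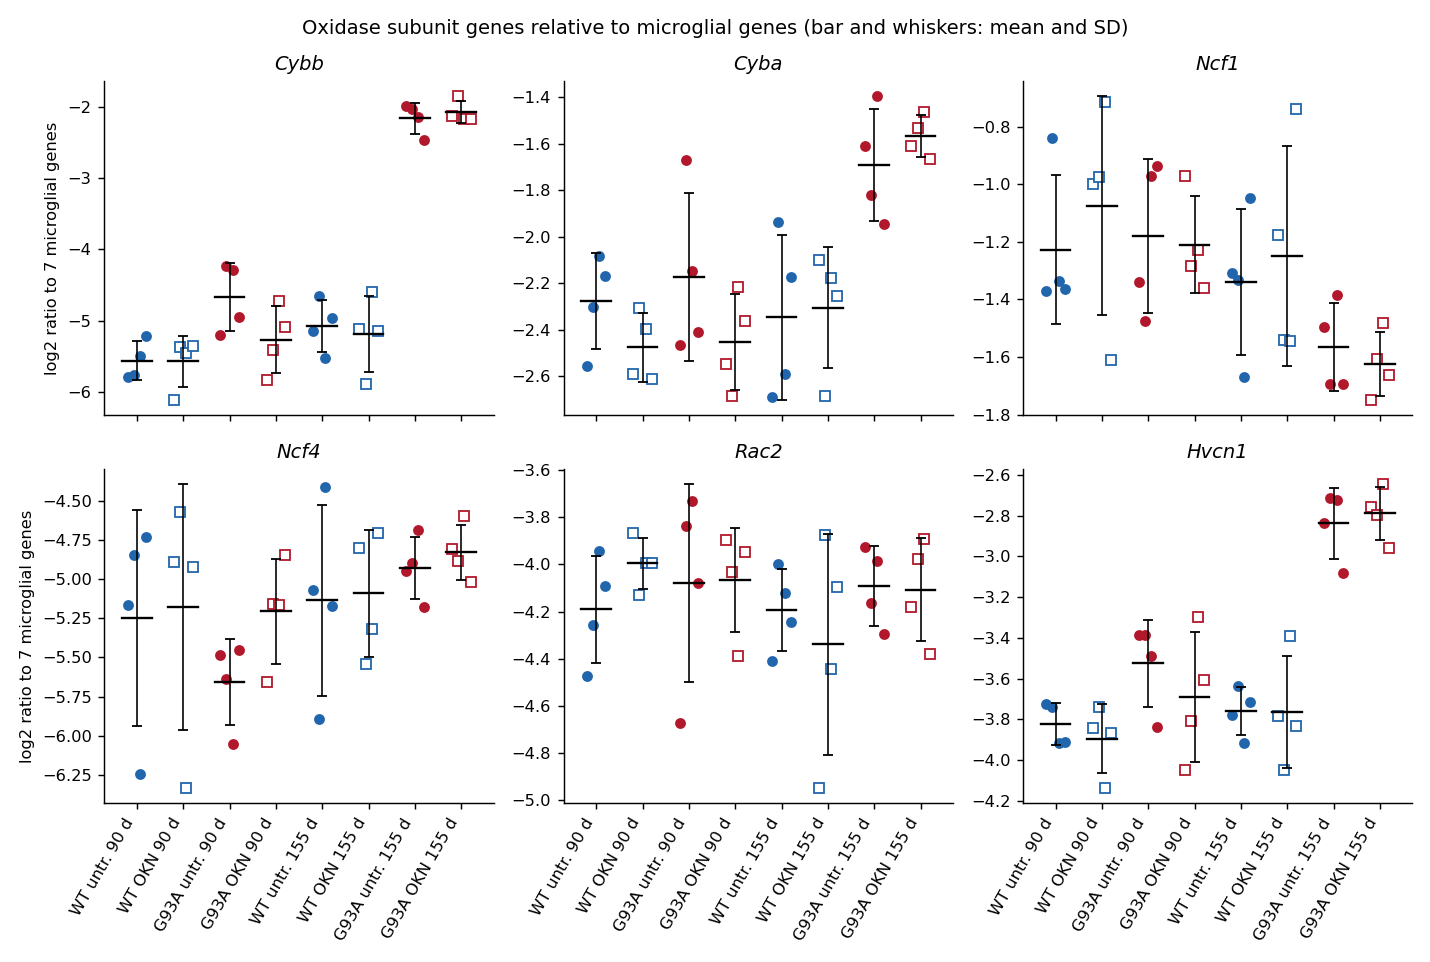
Log2 ratio of each oxidase gene to the 7 microglial genes in each of the 32 mice, by group of 4, with the mean and SD; red marks G93A, blue WT, and open squares OKN-007. The Cybb and Hvcn1 ratios of the 8 G93A mice at 155 days lie above those of the 8 WT mice of that age, at -2.47 to -1.85 for Cybb, while those of Ncf4 and Rac2 overlap.

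Neutrophils, which hold much of this oxidase in blood, were checked by 12 marker genes. Their summed level rose with the oxidase genes, from 6.41 to 10.3 CPM in untreated WT to 35.3 to 62.2 CPM in untreated G93A mice at 155 days. Of this, Csf3r alone, a receptor gene that microglia also express, gave 33.7 to 60.3 CPM, and it was the 1 gene called of the 3 that could be tested. The other 11 genes were each at most 0.661 CPM in these G93A mice, the highest value being that of S100a9, which reached 1.04 CPM in WT mice. Ly6g was at most 0.0391 CPM and Mpo at most 0.117 CPM, and Elane had no count in the 8 G93A mice of that age. The mean of Mmp8 was 0.136 CPM in WT and 0.260 CPM in G93A mice untreated, and 0.0632 and 0.299 CPM with OKN-007. The mean of Cxcr2 was 0.135 and 0.232 CPM untreated, and 0.0923 and 0.237 CPM with OKN-007, and both had too few counts to be tested. Of 9 genes of monocytes and border macrophages, 5 could be tested and 1 was higher, with a summed level of 5.05 to 7.96 against 3.99 to 4.63 CPM. For T and NK cells the summed level was 2.38 to 2.90 against 0.932 to 1.61 CPM, with 2 of the 3 genes tested higher. B cell genes had 2 of 4 tested higher and 1 lower, red blood cell genes 0 of 5 either way, astrocyte genes 5 of 5 higher, oligodendrocyte genes 1 of 5 higher and neuronal genes 9 of 10 lower. The part of these cells in the oxidase values was not tested.

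At 90 days no oxidase gene passed the threshold, and Cybb had the largest difference. In untreated mice 0 of 6 genes were called by edgeR (2 at an unadjusted p under 0.05, 0 by DESeq2), against a background of 0% of 18899 genes (1126 at an unadjusted p under 0.05, 16 called by DESeq2). Cybb stood at 0.769, 2.22, 2.28 and 0.826 CPM in G93A mice and at 0.442, 0.445, 0.633 and 0.720 CPM in WT mice. These groups did not overlap, although the values rest on 20 to 53 and 12 to 18 counts. Each other oxidase gene overlapped between genotypes here, and the share of all genes without overlap was not counted. The log2 fold change was 1.43 (95% interval 0.55 to 2.30, unadjusted p = 0.0029, adjusted p = 0.794 by edgeR). Hvcn1 stood at 2.96, 4.05, 4.04 and 1.89 CPM against 2.17, 2.11, 2.08 and 1.92 CPM, with 3 of 4 G93A mice above the WT mice (log2 fold change 0.64, unadjusted p = 0.026, adjusted p = 0.822 by edgeR).

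In mice given OKN-007 at 90 days, 0 of 6 genes were called between genotypes (1 at an unadjusted p under 0.05, 0 by DESeq2; background 0%, 747 genes at an unadjusted p under 0.05, 3 by DESeq2). Cybb stood at 0.503, 0.709, 1.59 and 1.15 CPM in G93A and at 0.405, 0.562, 0.545 and 0.6995 CPM in WT mice, so the groups overlapped. With the treatments averaged, 0 of 6 genes were called by edgeR (3 at an unadjusted p under 0.05, 0 by DESeq2), where 0.0265% of the 18899 genes passed. Those 5 genes, named after their values were seen, were Ccn5 (3.95 log2 units), Lgals3 (1.95) and Thbs2 (0.52), higher in G93A mice, and Adgrf5 (-0.40) and Gm13340 (-0.47), lower. In all, 1250 genes had an unadjusted p under 0.05 and 66 were called by DESeq2. Cybb was 1.13 log2 units higher in G93A mice (95% interval 0.51 to 1.76, unadjusted p = 0.0013, adjusted p = 0.2796), Hvcn1 0.63 (0.24 to 1.02, adjusted p = 0.366) and Cyba 0.44 (0.055 to 0.82, adjusted p = 0.656).

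For Cybb, Cyba and Hvcn1 the G93A mice of 90 days were spread more widely than the WT mice in both treatments, which was not tested, and the 2 core genes moved with the microglial genes. In untreated replicates 9 to 12, the mean log2 level of the 7 microglial genes was 4.998, 5.44, 5.54 and 4.83, beside Cyba at 5.69, 13.6, 10.4 and 5.27 CPM. In OKN-007 replicates 13 to 16 it was 5.10, 5.11, 5.48 and 5.42, beside Cyba at 5.77, 5.28, 9.49 and 8.20 CPM. Thus the mice with more Cybb and Cyba also had more microglial RNA. The mean log2 ratio of Cybb to the 7 genes was -5.56 in WT and -4.665 in G93A mice untreated, and -5.57 and -5.27 with OKN-007. For Cyba it was -2.28 and -2.17 untreated, and -2.47 and -2.45 with OKN-007. The ratios at 90 days were not tested. The caudal Hox score, the mean log2(CPM + 0.1) of those genes, was 3.71, 3.94, 3.65 and 2.85 in replicates 9 to 12 and 0.86, 0.67, 4.02 and 3.88 in replicates 13 to 16. The part of the piece of cord taken in these values was not tested within groups.

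OKN-007 against untreated at 90 days called 0 of 6 genes in G93A mice (0 at an unadjusted p under 0.05, 0 by DESeq2; background 0%, 1050 genes at an unadjusted p under 0.05, 0 by DESeq2), with log2 differences from -0.60 for Cybb (95% interval -1.43 to 0.22) to 0.66 for Ncf4 (-0.19 to 1.51). In WT mice it also called 0 of 6 (0 at an unadjusted p under 0.05, 0 by DESeq2; background 0%, 769 genes at an unadjusted p under 0.05, 0 by DESeq2). The interaction of genotype and treatment at 90 days called 0 of 6 (0 at an unadjusted p under 0.05, 0 by DESeq2; background 0%, 531 genes at an unadjusted p under 0.05, 0 by DESeq2), and was -0.58 for Cybb (95% interval -1.84 to 0.67).

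The genotype difference was larger at 155 than at 90 days for each of the 6 genes, by the interaction term in a fit of all 32 mice. In untreated mice 6 of 6 passed, against 21.2% of 19829 genes, and in mice given OKN-007 6 of 6 passed, against 23% of the genes. For Cybb the difference between ages was 4.26 log2 units untreated (95% interval 3.14 to 5.38, adjusted p = 8.49e-07) and 5.11 with OKN-007 (3.91 to 6.31, adjusted p = 1.00e-07). The smallest was that of Ncf1, at 1.996 untreated (1.45 to 2.54, adjusted p = 1.66e-06) and 2.13 with OKN-007 (1.58 to 2.67, adjusted p = 4.71e-07). Ageing alone did not move these genes past the threshold: between 90 and 155 days in untreated WT mice 0 of 6 were called by edgeR (0 at an unadjusted p under 0.05, 0 by DESeq2), against 24.9% of the genes. The log2 difference of 155 from 90 days ran from -0.39 for Ncf1 (95% interval -0.78 to 0.0065) to 0.26 for Cybb (-0.63 to 1.16). The labels name no preparation batch, and age and any such batch cannot be told apart.

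The genes most like each oxidase gene over the 32 mice were found by the root mean square difference of log2(CPM + 0.1), each gene centred on its own mean. For Cybb the nearest were Lyz2, the lysozyme gene of macrophages, at a difference of 0.36 log2 units, Ly9 at 0.54 and Cd200r4 at 0.55. For Cyba they were C1qc, C1qb and Fcer1g at 0.19 to 0.21, the first pair being complement genes of microglia. For Hvcn1 they were Trem2, Tyrobp and C1qa at 0.22 to 0.23, Trem2 and Tyrobp encoding a microglial receptor and its adaptor. These measures are descriptions over mice that share their groups.

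For Ncf1 the nearest genes were Syk, Inpp5d and Fas at 0.21 to 0.22, Syk encoding a kinase that signals from immune receptors. For Rac2 they were Laptm5 (also 1 of the 7 microglial genes above), Fermt3 and Arpc1b, at 0.26 each, and for Ncf4 Tlr2, Fcgr1 and Plek at 0.41 to 0.42. The nearest genes of Cybb and Ncf4, which had the lowest levels in WT mice, were thus farther away than those of the other 4. Among the oxidase genes, Cyba and Hvcn1 were nearest to each other at 0.24, and Cybb was 0.996 to 1.59 from each of the other 5.

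The genes around the oxidase were described by 8 lists in untreated mice at 155 days, against the same background of 39.5% called and a median near 0. Of the 9 other proteins of the NOX2 oxidase and its assembly, 6 rose and 0 fell, with a median log2 fold change of 0.54. These included Prdx6, a peroxiredoxin whose lipase activity aids the oxidase (1.9995), Nrros, which controls gp91phox in the endoplasmic reticulum (1.49), and Pgd (0.56) and G6pdx (0.54), which make NADPH. Rac1, the widely expressed GTPase, rose from 305 ± 10.8 to 360 ± 16.6 CPM (SD, n = 4; log2 fold change 0.25, adjusted p = 0.00165), far less than Rac2. Of the other NADPH oxidase catalytic subunits and partners, 10 were in the table, 4 could be tested and 2 rose. Nox4, the constitutively active form, went from 0.658 ± 0.235 to 1.99 ± 0.67 CPM (log2 fold change 1.61, adjusted p = 0.000477), and Noxo1 rose by a log2 fold change of 0.59. The others had too few counts to be tested or did not pass.

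Upstream of the enzyme, 12 of the 14 receptors that trigger it could be tested and all 12 rose, with a median of 3.35. Clec7a, the receptor for fungal glucans, rose by 6.61 on the log2 scale, Fcgr2b by 4.53, Fcgr4 by 3.92 and C5ar1, the complement C5a receptor, by 3.71. The smallest rises were those of Tlr4 (1.997) and P2rx7, the ATP receptor (1.14). Of 26 kinases, exchange factors and lipases that act on the oxidase, 18 rose and 5 fell, with a median of 0.35. Those with the largest rise were Fgr (2.89), Btk (2.80), Dock2 (2.72) and Vav1 (2.71), kinases and Rac exchange factors of blood cells, and those with the smallest values were Prkcb (-0.53) and Tiam1 (-0.55), which fell.

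Of 9 brakes on Rac and the oxidase, 5 rose and 1 fell, with a median of 0.40, led by Arhgap25 (3.30), a Rac GTPase-activating protein, Ptpn6 (3.04), the phosphatase SHP-1, Inpp5d (2.17) and Arhgdib (2.15). Abr fell by 0.34. Of 7 ion channels and carriers beside the oxidase, 6 could be tested, Clic1 (2.10) and Kcnn4 (1.41) rose, 2 fell, among them Trpm2 (-0.39), and the median was -0.25, against 0.21 in mice given OKN-007. Of 14 enzymes that remove superoxide and hydrogen peroxide, 6 rose and 1 fell, with a median of 0.22. Prdx6 (1.9995), Gpx1 (1.18), Gpx3 (0.93) and Prdx1 (0.68) rose most and the mitochondrial Sod2 fell by 0.42. The median of this list stood well under the 3.06 of the oxidase genes. The list holds mouse genes only, so the human SOD1 transgene of the G93A mice, which was not analysed, is not part of that median.

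Of 12 transcription factors known to act on the oxidase genes, 11 could be tested and 11 rose, with a median of 1.19. The largest rises were those of Irf8 (3.26), Spi1, which encodes PU.1 (2.88), Runx1 (2.84) and Cebpa (2.02), and the smallest were those of Nfkb1 (0.48) and Hif1a (0.41). In mice given OKN-007 the counts of these 8 lists at 155 days were close, such as 12 of 12 receptors, 17 of 26 kinases and partners and 11 of 11 transcription factors higher. At 90 days, with treatments averaged, 0 genes of the 8 lists passed by edgeR.

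**Figure D5:**
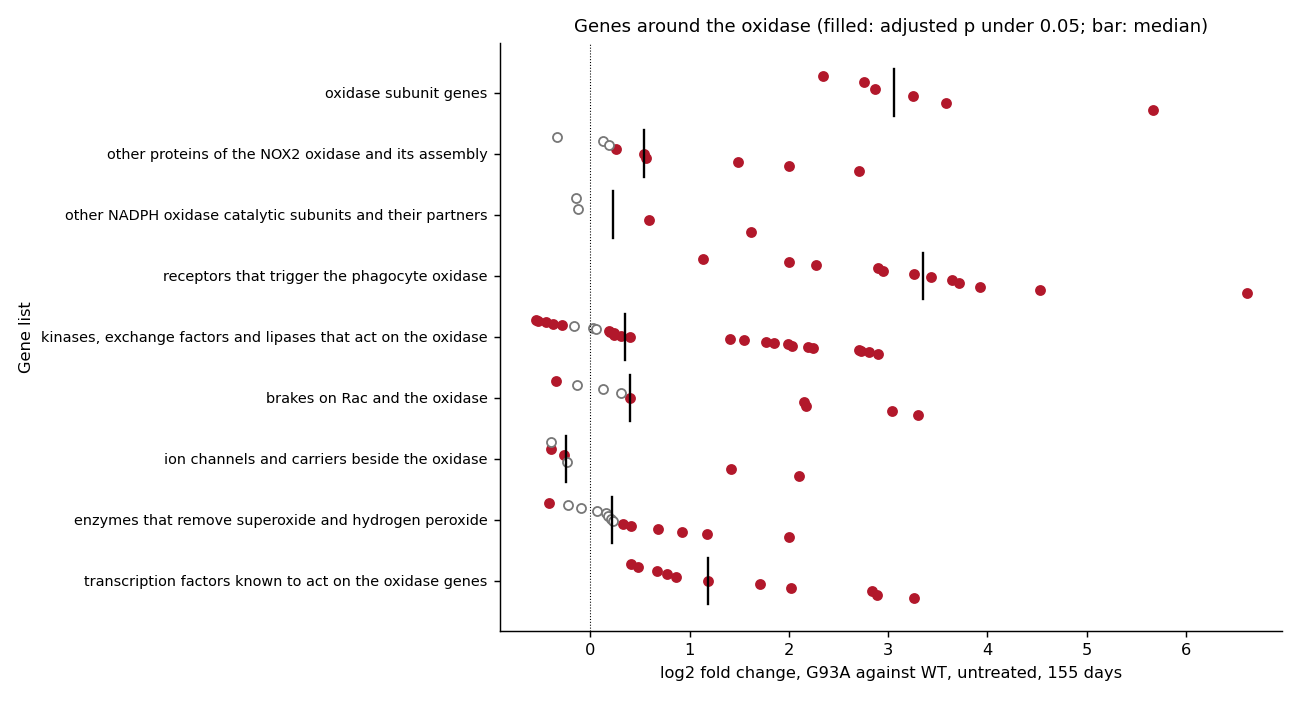
Log2 fold change of G93A against WT, untreated at 155 days, for each tested gene of the oxidase set and of 8 lists of related genes, with list medians as bars; filled points have an adjusted p under 0.05. The receptors (median 3.35) lie with the oxidase genes (3.06). The median of the mouse enzymes that remove superoxide and peroxide (0.22) lies near 0, and the human SOD1 transgene is not among them.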

How the data were processed

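RNA-seq was made from the spinal cord of 32 mice (TRIzol extraction, a stranded mRNA kit, Illumina sequencing). The deposited file holds raw read counts per gene, which the authors made by trimming, STAR alignment and counting. The sources differ on the steps: the study's methods name HTSeq, GRCm38 and GENCODE M10, and the submitters' processing notes name FastQC, STAR, featureCounts, edgeR, GRCm39, mm39 and hg38. Of 1321 identifiers without a symbol in GENCODE M21, 1306 are numbered above the highest there, so the counting annotation was later than M10. Symbols (41203 of 42524 genes), lengths and coordinates are from GENCODE M21, GRCm38.

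Members and lists were chosen with earlier results of these data known. Groups came from the labels, and each mouse was 1 replicate. Counts were tested with edgeR 4.0.16 (R 4.3.3): TMM, filterByExpr, quasi-likelihood F test, Benjamini-Hochberg over all genes tested, threshold 0.05, with 16 mice per fit within an age and 32 between ages. All 6 genes passed the filter on low counts in each fit. Standard errors come from the F statistic and intervals are 95%. Ratios to microglial genes used log2(CPM + 0.1) and exact two-sided permutation tests (70 arrangements of 4 and 4). The named genes were the 6 members, Rac1, Nox4, up to 4 largest and 2 smallest changes past the threshold in each list, and the 3 nearest genes of each member. Some genes under this rule are not reported here.

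Alternatives were DESeq2 1.42.0, RLE factors, other filters, other sets of mice, a Hox covariate, a fold threshold, single mice left out and a replicate block. The fit of genotype in untreated mice at 155 days was also run on simulated counts with 200 of 18675 genes changed. In the data 7378 genes were called, so that run does not show how the fit behaves at such a share. Total counts were 19701722 to 30138257 per mouse, so 3 counts equal 0.0995 to 0.152 CPM. No libraries were identical, and the closest pair in a group differed by a chi-square of 3.80 per gene. Tables and figures used Python 3.11.15, numpy 2.4.6, pandas 2.3.3 and matplotlib 3.10.9.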

Additional observations from a re-analysis of the deposited data

Results flagged for a closer look

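Within groups of 4 mice, 2 values stood far from the rest by Dixon's test of the gap to the nearest value. Ncf4 was at 0.252 CPM in WT mice given OKN-007 at 90 days, replicate 7, where the next lowest mouse had 0.979 CPM. Rac2 was at 6.40 CPM in G93A mice given OKN-007 at 155 days, replicate 16, where the next had 9.16 CPM. With 48 groups examined, chance gives about 2.4 such values.

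The genotype effect differed between 90 and 155 days for each of the 6 genes, by the interaction term of edgeR's quasi-likelihood test. The log2 difference between the ages in untreated mice was 4.26 for Cybb, 2.78 for Cyba, 1.996 for Ncf1, 3.12 for Ncf4, 2.26 for Rac2 and 2.94 for Hvcn1. In mice given OKN-007 it was 5.11 for Cybb, 3.04 for Cyba, 2.13 for Ncf1, 2.89 for Ncf4, 2.71 for Rac2 and 3.10 for Hvcn1. The labels name no preparation batch, so age and batch cannot be told apart.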

How the results depend on the processing

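The 6 genes were called between genotypes at 155 days, and in the genotype by age terms, under each alternative that tested them, and 4 of 4 where at least 10 counts in every mouse were required. At 90 days, for OKN-007 and for age in WT mice, 0 of 6 were called under each alternative. Cybb between genotypes at 90 days, treatments averaged, came nearest to the limit. Its adjusted p ran from 0.051 to 0.289 over the alternative edgeR and DESeq2 fits. A change of sign in a value that no fit called was not counted as a reversal. In the permutation tests of 4 against 4 mice, the adjusted p depends on how many tests reach the smallest possible p. The counts that pass there do not weigh single genes. With a pseudocount of 1, 4 genes passed in the ratio to microglial genes in untreated mice and 4 in mice given OKN-007, against 0 with 0.1. The ratio difference then turned to -0.65 for Ncf4 and -0.40 for Rac2 untreated, to -0.66 for Ncf4 with OKN-007, and to -0.66 for Ncf4 and -0.41 for Rac2 with treatments combined. A larger pseudocount shrinks the log2 change of low genes by construction. In the combined test Ncf1 was lost without the libraries with the most liver RNA (-0.30, adjusted permutation p = 0.067) and without any 1 of 8 mice (-0.30 to -0.22), and passed with a reference lacking Itgam and Cx3cr1 (-0.45, adjusted permutation p = 0.0012) and with a pseudocount of 1 (-0.33, adjusted permutation p = 0.0098). With that pseudocount the combined difference was 1.90 for Cybb and 0.49 for Hvcn1, against 3.01 and 0.95. Per coding length, taken from GENCODE M21, 2 genes changed places in untreated WT mice at 155 days. Equal replicate numbers at the 2 ages did not pair the mice (correlations of -0.215 to 0.141 over 16 numbers, 3 of them over 0.1 and 3 mice nearest to their own number). With the replicate block 6, 6 and 0 of the 6 genes were called for genotype by age untreated, with OKN-007 and for age in WT mice, and 4197, 4624 and 4824 of all genes against 4211, 4557 and 4933. Over all genes, a required log2 fold change of at least 1 left 1717 and 1888 calls between genotypes at 155 days (untreated and OKN-007), 1416 and 1434 for genotype by age and 495 for age in WT mice. The 4933 calls for age in WT mice without that limit were 3115 without WT untreated 90 days replicate 4. Without a filter on low counts, OKN-007 in G93A mice, in WT mice and its interaction gave 17, 10 and 8 calls at 155 days and 8, 14 and 3 at 90 days, and genotype at 90 days gave 39 untreated, 24 with OKN-007 and 110 averaged. The 5 averaged calls became 66 by DESeq2, 21 in a fit of 32 mice, 2 with at least 10 counts or with the fold limit, and 3 to 54 on leaving out single mice, most without G93A untreated replicate 12. The causes were not tested. Low counts of Cybb and Ncf4 in WT mice, 6 to 29 per mouse, limit the precision of their fold changes.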
